A study of Mus musculus with 2 samples.

Results

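These measurements concern the trophectoderm of the mouse blastocyst, split by how much Cdx2, Eomes and Elf5 RNA each cell held. A barcode stands for 1 captured cell, and a UMI (unique molecular identifier) for 1 captured RNA molecule. Of 1097 blastocyst barcodes past the quality filters (at least 1000 UMIs, at least 500 genes and at most 25% mitochondrial UMIs), 374 passed a trophectoderm gate. The gate asked for at least 5 UMIs of Krt18, Tspan8, Dppa1 and Gata3 together. It also asked for at least 2 times the UMIs of an epiblast set (Nanog, Tdgf1, Sox2, Fgf4, Klf2) and of a primitive endoderm set (Gata4, Gata6, Sox17, Pdgfra). The 374 barcodes were ranked by the share of their UMIs from Cdx2, Eomes and Elf5, and the 124 highest (the high group) were set against the 124 lowest (the low group), with 126 barcodes between them (the middle group). The 3 ranking genes were then left out of every profile.

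The study sequenced 2 libraries of single cells with the BD Rhapsody whole transcriptome kit: 1 of B6C3F1 mouse embryos at E4.5, dissociated whole with TrypLE, and 1 of cultured embryoids made from embryonic stem cells and reprogrammed XTE cells. The labels give 6000 cells as used for a library and name neither the number of embryos pooled nor a second embryo library. All 374 barcodes therefore come from 1 library with no replicate, and barcodes are not replicates, so no test across samples was possible and no p-value is given. Intervals are 95% limits of counting error only. They leave out the differences between embryos and between cells.

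Trophectoderm is the outer epithelium of the blastocyst. Its polar part lies over the epiblast and keeps dividing under FGF4 from it. Its mural part lines the cavity, stops dividing and gives rise to the first trophoblast giant cells. Cdx2 is the homeobox factor that specifies the lineage, Eomes is a T-box factor of trophoblast stem cells and Elf5 is an ETS factor of the same stem cell circuit. All 3 are commonly used as marks of polar trophectoderm. The position of a cell in the embryo was not measured here, so the groups are named by their ranking genes and not as polar or mural.

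The ranking values are the choice itself and are given as a description. The summed level of the 3 genes ran from 1106 to 5505 UMIs per 1e6 UMIs of the barcode (CPM) over barcodes of the high group, with a median of 1455. It ran from 718 to 1105 CPM in the middle group, with a median of 889, and from 0 to 716 CPM in the low group, with a median of 452. The groups touch at their limits: 1106 CPM was the last value inside the high group and 1105 CPM the first outside it, while 716 CPM was the last inside the low group and 718 CPM the first outside it. The sum rests on few molecules, with a median of 14 UMIs in a barcode of the high group, 9 in the middle group and 3 in the low group, and 6 barcodes of the low group had none.

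Eomes gave the largest part of the sum. Of 3551 UMIs of the 3 genes, Eomes gave 47.2%, Cdx2 29.8% and Elf5 23.0%. In the summed profiles of the high, middle and low groups, Eomes stood at 887, 354 and 153 CPM and Elf5 at 351, 209 and 115 CPM. Cdx2 stood at 331, 334 and 200 CPM, with intervals of 299 to 366 CPM in the high and 305 to 366 CPM in the middle group that overlap almost whole. Outside the trophectoderm gate Cdx2 and Elf5 were close to 0, at 1.88 and 1.505 CPM in 253 epiblast-gated barcodes and at 0.504 and 0.252 CPM in 402 primitive endoderm-gated barcodes. Eomes was not, at 20.7 and 58.4 CPM.

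**Figure D1:**
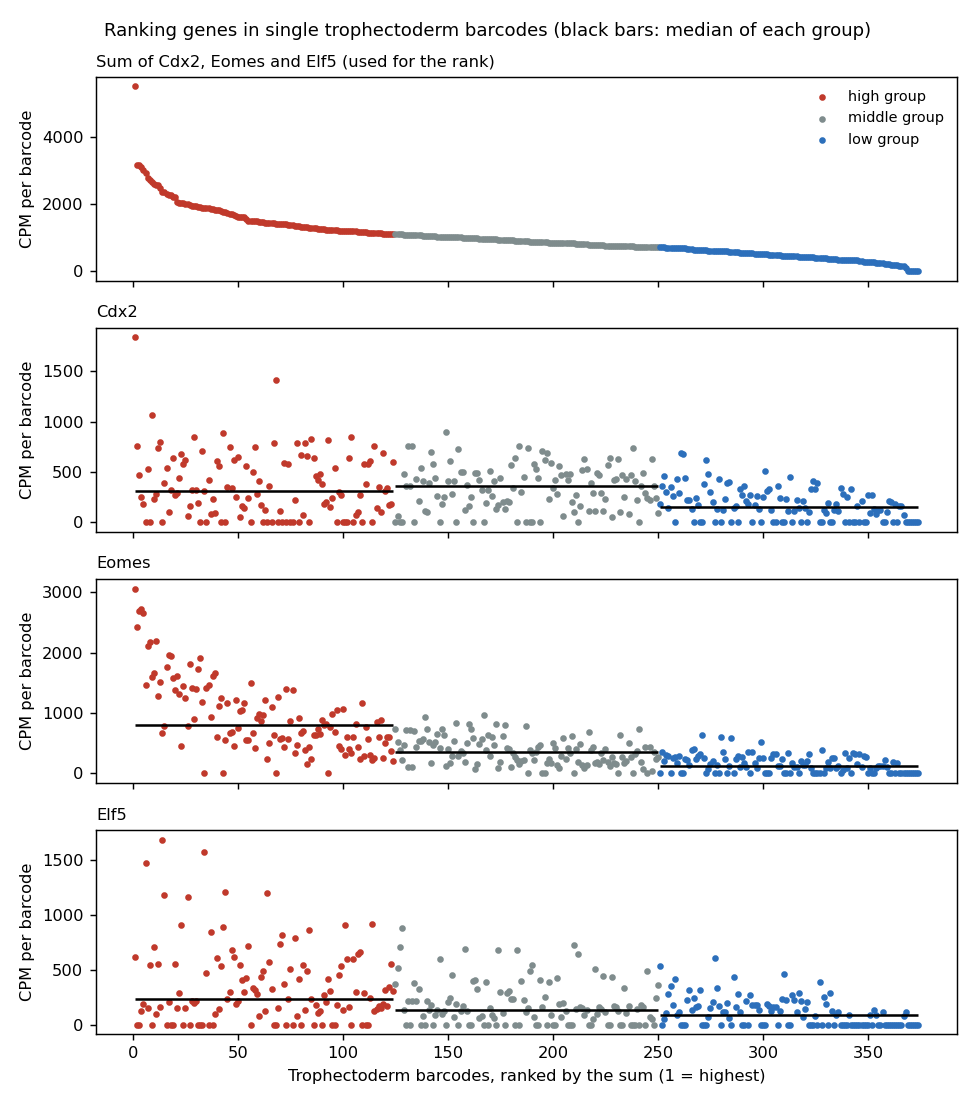
Each point is 1 of the 374 trophectoderm barcodes, placed along the x axis by its rank on the summed level of Cdx2, Eomes and Elf5 (1 is the highest) and along the y axis by its CPM, for the sum and for each gene. Colours mark the groups and black bars their medians; Eomes falls with rank from 809 CPM to 348 and 125 CPM, while the median of Cdx2 is highest in the middle group, at 361 CPM.

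The 3 genes were not carried by the same barcodes in step. A UMI of all 3 was seen in 181 of the 374 barcodes, of 2 in 144, of 1 in 43 and of none in 6. Across the 374 barcodes the Spearman correlation of CPM was -0.08 for Cdx2 with Eomes, -0.18 for Cdx2 with Elf5 and 0.06 for Eomes with Elf5. With 364 barcodes thinned to 2000 UMIs these values were 0.05, -0.03 and 0.02, so they are near 0 at a depth where most barcodes hold 1 or no UMI of a gene. The points share a library and a total, and these values describe them only.

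The lineage label was checked on markers that neither the gate nor the ranking used. These 10 trophectoderm genes summed to 5010, 4509 and 4566 CPM in the high, middle and low groups, against 275 CPM in the epiblast gate and 484 CPM in the primitive endoderm gate. Among the gate genes, which were used in the choice, the keratin Krt18 stood at 2049, 2189 and 2256 CPM and the tetraspanin Tspan8 at 2281, 1411 and 1295 CPM. Markers of maternal blood cells and of cumulus cells were near 0, at 10.4 and 6.10 CPM summed in the high group and at 7.68 and 0.960 CPM in the low group. Of the list of uterine epithelium and stroma markers, Lum and Col1a1 had 0 UMIs in both of these groups. Its epithelial members were present: the epithelial adhesion gene Epcam, which trophectoderm also expresses, stood at 1409, 1763 and 2235 CPM in the high, middle and low groups (log2 ratio -0.66, -0.76 to -0.57), and Wfdc2 at 145, 128 and 153 CPM (-0.07, -0.39 to 0.25). Summed, the 4 members in the file stood at 1554, 1892 and 2388 CPM, and the part of maternal cells in the comparison was not tested.

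Depth and quality differed somewhat between the groups. The median UMIs per barcode were 8374, 10469 and 7737 in the high, middle and low groups, and the range over all 374 barcodes was 1409 to 32415. The median mitochondrial share was 10.4%, 12.2% and 13.0%, with 3, 12 and 16 barcodes above 20%. Barcodes with a UMI of the epiblast gate set numbered 35, 50 and 54. Those with a UMI of the primitive endoderm gate set numbered 69, 94 and 98, and Gata6 alone accounted for 65, 93 and 97 of them. Of the barcode sequences, 9 occurred in both libraries and 1 of these was a trophectoderm barcode, in the low group.

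The high group was set against the low group over every gene that reached 20 CPM in the higher of the 2 summed profiles. The log2 ratio was taken after adding 5 CPM to both levels, and a ratio of at least 2-fold was counted. Of 6290 genes, 195 (3.10%) stood 2-fold or more above the low group and 149 (2.37%) stood 2-fold or more below it. The middle group lay between the other groups in 184 of the 195 and 143 of the 149 genes. These genes were chosen for a wide gap between the high and low groups, which favours a place between them by construction. The median log2 ratio over all 6290 genes was 0.00.

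The 15 genes furthest above the low group joined an epithelial keratin, a cytokine, uptake and adhesion proteins, transporters and enzymes of serine and lactate synthesis. Krt19, a keratin of simple epithelia (chr11:100140810-100148665, mm10), stood at 132 CPM (112 to 155) in the high group, 63.5 CPM in the middle group and 9.60 CPM (4.60 to 17.7) in the low group. That is a log2 ratio of 3.23, with an interval of 2.87 to 4.87 for the ratio of the counts without the added CPM. It was seen in 34 of 124, 15 of 126 and 6 of 124 barcodes, so most barcodes of the high group gave no Krt19 UMI. Il6, which encodes the cytokine interleukin 6 (chr5:30013114-30019981), stood at 47.9, 3.57 and 0.960 CPM, from 55, 5 and 1 UMIs in 17, 5 and 1 barcodes. Neither the epiblast nor the primitive endoderm gate held a UMI of Il6.

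Proteins of uptake, adhesion and the cell surface followed. Snap91, a clathrin assembly protein, stood at 197, 42.1 and 23.0 CPM (log2 ratio 2.85, 2.48 to 3.77), in 41.1% of barcodes of the high group and 11.3% of the low group. Itga7, the alpha 7 subunit of laminin-binding integrins, stood at 42.7, 13.6 and 1.92 CPM (2.78), from 49, 19 and 2 UMIs. Cmklr1, the receptor for chemerin, stood at 114, 35.7 and 18.2 CPM (2.36, 1.94 to 3.42). Igsf8, an immunoglobulin superfamily protein that binds tetraspanins, stood at 35.7, 9.28 and 1.92 CPM (2.56). Tmem37, a membrane protein, stood at 142, 30.7 and 18.2 CPM (2.66), and Anxa4, a calcium-dependent phospholipid-binding annexin, at 159, 48.5 and 34.6 CPM (2.05). In these 6 genes the middle group lay nearer to the low than to the high group.

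Transporters and enzymes made up most of the rest. Slc40a1, the iron exporter ferroportin, stood at 74.0, 15.7 and 10.6 CPM (2.34), and Slc43a2, a transporter of large neutral amino acids, at 64.4, 16.4 and 8.64 CPM (2.35). Gsta1, a glutathione S-transferase of a family of close copies, stood at 134, 70.7 and 20.2 CPM (2.47). Psat1, which makes phosphoserine in the synthesis of serine, stood at 411, 281 and 80.7 CPM (2.28, 2.01 to 2.702), in 51.6% and 23.4% of barcodes of the high and low groups. Ldha, the A subunit of lactate dehydrogenase, stood at 148, 71.4 and 25.9 CPM (2.31, 1.92 to 3.16). Ldha was higher still in the epiblast gate (325 CPM) and the primitive endoderm gate (410 CPM), so its level in the high group remained below that of the other lineages.

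A pair of neighbouring cathepsin-like genes completed the list. BC051665 (chr13:60781887-60786364, minus strand) stood at 1897, 626 and 341 CPM (log2 ratio 2.46, 2.31 to 2.64), in 77, 54 and 42 barcodes. Ctsll3 (chr13:60798250-60802849, minus strand) stood at 257, 89.2 and 24.0 CPM (3.17, 2.83 to 4.07). Its UMIs came from only 14, 2 and 2 barcodes, and 1 barcode held 34.2% of those in the high group; without that barcode the log2 ratio was 2.61. Neither gene was found above 2 CPM in the other lineages. The 250 bases before their RefSeq starts (GRCm38.p6, minus strand, 5′ to 3′), chr13:60786365-60786614 and chr13:60802845-60803094, are shown because the copies are so alike there, with the TATA box (TATAAA) in capitals.
BC051665: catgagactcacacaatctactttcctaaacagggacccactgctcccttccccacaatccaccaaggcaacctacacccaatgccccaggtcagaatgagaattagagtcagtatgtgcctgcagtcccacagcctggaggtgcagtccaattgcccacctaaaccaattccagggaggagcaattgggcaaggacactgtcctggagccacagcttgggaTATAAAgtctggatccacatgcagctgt
Ctsll3: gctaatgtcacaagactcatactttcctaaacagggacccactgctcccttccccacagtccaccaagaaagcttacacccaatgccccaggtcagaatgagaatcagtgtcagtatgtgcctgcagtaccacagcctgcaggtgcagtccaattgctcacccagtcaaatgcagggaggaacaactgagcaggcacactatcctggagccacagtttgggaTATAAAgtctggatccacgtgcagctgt
In a global alignment 218 positions were identical, 30 differed and 4 columns held a gap, an identity of 86.5%. Whether reads of such copies were split between the genes in counting was not tested, so the 2 values are uncertain as separate measurements.

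The same windows were searched on both strands for short cores of the ranking factors' motifs, at any position and with overlaps allowed. A RefSeq window was found for 12 of the 15 higher and 9 of the 15 lower genes. A named gene was counted if any of its windows held the core. The percentages are shares of single windows, so the 2 are not the same measure. The T-box core AGGTGT lay before 2 of the 12 and 2 of the 9 genes, against 11.8% of all 32851 windows. The Cdx2 core TTTATG lay before 0 of the 12 and 1 of the 9 genes, Lrp2, against 10.8% of all windows, and the ETS core AGGAAG before 3 and 3 genes, against 29.5%. TATAAA lay before BC051665 and Ctsll3 and no other named gene with a window, against 12.4% of all windows.

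The 15 genes furthest below the low group included an endocytic receptor, a gap junction protein and genes of germ line and early embryo cells. Lrp2, the endocytic receptor megalin (chr2:69424340-69586065), stood at 37.4 CPM (27.1 to 50.4) in the high group, 125 CPM in the middle group and 252 CPM (222 to 284) in the low group. Its log2 ratio was -2.60 (-3.25 to -2.28), and it was seen in 23, 65 and 68 barcodes. Gja1, the gap junction protein connexin 43, stood at 16.5, 60.0 and 94.1 CPM (-2.20, -3.30 to -1.79). Dppa2 and Dppa3, which are expressed in pluripotent and germ line cells, stood at 16.5, 49.3 and 65.3 CPM (-1.71) and at 59.2, 139 and 195 CPM (-1.64). Pramel5, a member of a large family of Prame-like copies, stood at 8.71, 45.0 and 57.6 CPM (-2.19). Lrp2 in the middle group was nearer to the high group, and the other 4 genes were nearer to the low group.

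Enzymes, scaffolds and surface proteins filled the lower list. Chpt1, a choline phosphotransferase, stood at 48.8, 99.9 and 177 CPM (-1.76), and Npl, which cleaves sialic acid, at 65.3, 108 and 218 CPM (-1.66). Akap12, a scaffold that anchors protein kinase A, stood at 54.9, 116 and 180 CPM (-1.62), and Ly6e, a surface protein anchored by a lipid, at 26.1, 41.4 and 91.2 CPM (-1.63). Mfge8, which binds phosphatidylserine, stood at 58.3, 103 and 170 CPM (-1.47). Sycn, Reep1, Trib1, Add3 and Slc4a11 had log2 ratios from -1.55 to -1.46. Some of these lower genes were also high in the other lineages: Akap12 stood at 884 CPM in the epiblast gate and 543 CPM in the primitive endoderm gate, Gja1 at 194 and 236 CPM, and Npl at 30.8 and 344 CPM. Of the 149 lower genes, 60 (40.3%) stood at least 2-fold higher in the epiblast gate than in the high group, against 13.7% of all genes tested, and 58 (38.9%) did so in the primitive endoderm gate, against 11.5%. Of the 195 higher genes, set against the low group, 46 (23.6%) did so in the epiblast gate, against 12.4% of all genes, and 57 (29.2%) in the primitive endoderm gate, against 10.7%. The called genes were chosen for a low level in the group they are set against here, which raises these shares by construction.

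**Figure D2:**
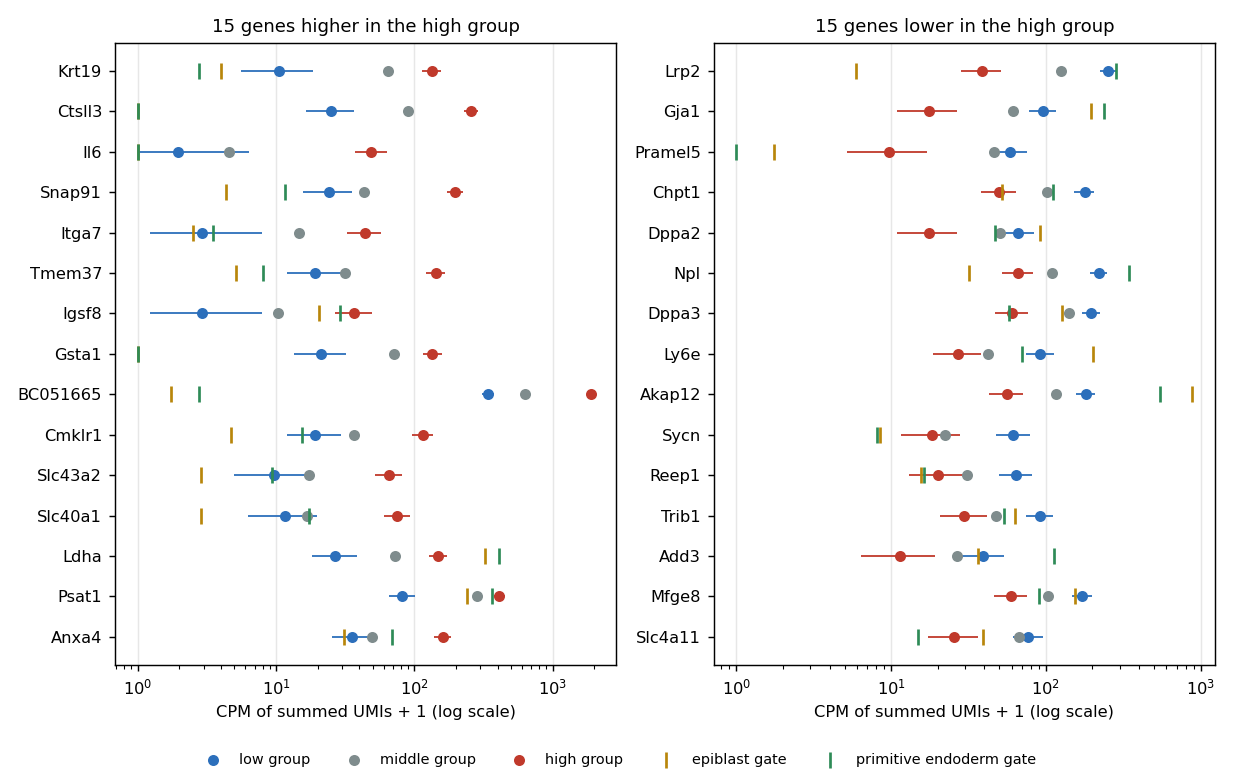
Points give the level of each named gene in the summed profile of the low, middle and high groups, with bars for the 95% counting interval of the low and high groups, and vertical ticks give the epiblast and primitive endoderm gates; the x axis is CPM + 1 on a log scale. Krt19 runs from 9.60 to 132 CPM and Lrp2 from 252 to 37.4 CPM between the low and high groups, and the middle group lies between them for both.

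At equal depth the shares of barcodes with a UMI of 5 of the named genes were as follows. With every barcode thinned to 2000 UMIs, which left 120, 126 and 118 barcodes, Krt19 was seen in 15.0%, 3.97% and 0.847% of the high, middle and low groups, against 27.4%, 11.9% and 4.84% unthinned. The shares of Tmem37 were 20.0%, 3.97% and 2.54%, and those of BC051665 51.7%, 31.0% and 22.0%. For Lrp2 they were 9.17%, 19.05% and 32.2%, and for Npl 14.2%, 21.4% and 28.8%. These genes were chosen for a gap between the high and low groups, so the order of the shares is favoured by construction. Not every named gene separated so well. Add3 was seen in 2.5%, 4.76% and 5.08% of thinned barcodes, and Reep1 in 5.0%, 3.17% and 10.2%. When barcodes were ranked within 5 strata of depth, or within 5 strata of mitochondrial share, all 30 named genes kept their direction. When the ranking itself was made from barcodes thinned to 2000 UMIs, 28 of the 30 did, and the low-count genes Il6 (-1.24) and Pramel5 (0.85) did not. In that ranking 58 of the 195 higher genes (29.7%) and 34 of the 149 lower genes (22.8%) were again 2-fold apart in the same direction.

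Gata6, a factor of primitive endoderm that was part of the gate, moved with the ranking. It stood at 151, 264 and 374 CPM in the high, middle and low groups and at 714 CPM in the primitive endoderm gate, with a log2 ratio of -1.29 (-1.58 to -1.05). The other primitive endoderm gate genes were near 0: Gata4, Sox17 and Pdgfra together gave 8, 8 and 7 UMIs. Dab2, an endocytic adaptor that trophectoderm also holds, was seen in 68.3%, 75.4% and 78.8% of thinned barcodes. The epiblast gene Nanog stood at 10.4, 27.1 and 31.7 CPM, from 12, 38 and 33 UMIs, against 361 CPM in the epiblast gate, and Tdgf1 gave 1, 1 and 13 UMIs. With barcodes holding any UMI of the epiblast set, or of Gata4, Sox17 or Pdgfra, left out, all 30 named genes kept their direction, and 288 genes stood above and 248 below the low group by 2-fold or more.

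Genes listed as marks of trophoblast stem cells and polar trophectoderm did not move together with the ranking. Of 13 measured members besides the ranking genes, 2 stood 2-fold or more above the low group and 1 stood 2-fold or more below it (median log2 ratio 0.26). Over all 6290 genes 3.10% stood above and 2.37% below by that much. Ets2, an ETS factor of trophoblast, stood at 51.4, 25.0 and 20.2 CPM (1.16, 0.61 to 2.14), and the homeobox gene Rhox5 at 71.4, 72.8 and 21.1 CPM (1.55, 1.06 to 2.51). Ly6a, the stem cell antigen 1, stood at 155, 230 and 341 CPM (-1.11, -1.40 to -0.87). Tfap2c, an AP-2 factor, stood at 283, 181 and 150 CPM (0.90), while Fgfr2, the receptor for FGF4, stood at 369, 306 and 275 CPM (0.42). Esrrb, a nuclear receptor of trophoblast stem cells, was low throughout, at 9.58, 15.0 and 21.1 CPM, and Tead4 stood at 97.5, 112 and 107 CPM.

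Some genes listed as marks of mural trophectoderm and giant cells were higher in the high group. Of 8 measured members (15 were in the file) 4 were at least 2-fold higher and 0 lower, with a median of 0.82, where 3.10% of all genes tested were higher and 2.37% lower. The other 4 had ratios within 2-fold, and Bhlhe40 (-0.49) and Lamc1 (-0.03) were below 0. Basp1, a membrane-bound signalling protein, stood at 1500, 549 and 432 CPM (1.78, 1.65 to 1.95). The keratin Krt7 stood at 98.4, 38.5 and 26.9 CPM (1.70, 1.26 to 2.52), the transcriptional cofactor Cited2 at 354, 183 and 122 CPM (1.498), and the bZIP factor Cebpa at 212, 135 and 96.0 CPM (1.11). Krt7 and Cebpa were close to 0 in the other lineages, at no more than 1.01 CPM, while Basp1 stood at 1076 CPM in the primitive endoderm gate. The list of ectoplacental and labyrinth genes had 3 of 5 measured members at least 2-fold higher (median 1.27), beside the same 3.10% of all genes. Of these, Plac1, a placental surface protein, stood at 208, 85.7 and 77.8 CPM (1.36). The imprinted Phlda2 stood at 87.9, 39.3 and 6.72 CPM (2.99), from 101, 55 and 7 UMIs in 10, 7 and 4 barcodes. The list of mural genes had a median of -0.25 in groups by Elf5 alone, and of -0.20 with Eomes left out of the sum. That of the ectoplacental list was -0.73 in groups by Cdx2 alone.

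Amino acid supply and glycolysis were the metabolic lists with several members higher. Of 13 measured amino acid transporters and ATF4 targets 6 were at least 2-fold higher and 0 lower (median 0.85), where 3.10% and 2.37% of all genes tested were. The neutral and cationic amino acid importer Slc6a14 stood at 270, 118 and 80.7 CPM (1.68), the cationic amino acid transporter Slc7a3 at 68.8, 29.98 and 19.2 CPM (1.61), and asparagine synthetase Asns at 81.8, 50.7 and 26.9 CPM (1.45). Slc7a5 (1.43), Slc38a2 (1.15) and Psat1 made up the rest. Of 12 glycolysis genes 4 were at least 2-fold higher and 0 lower (median 0.51). The glycolysis genes were the glucose transporter Slc2a1 at 246, 128 and 82.6 CPM (1.52), Pgk1 at 53.1, 25.0 and 13.4 CPM (1.66), Eno1 at 145, 89.9 and 59.5 CPM (1.22), and Ldha. With Elf5 left out of the sum the glycolysis median was -0.12. Hexokinase Hk2 stood at 399, 418 and 457 CPM (-0.19) and Aldoa at 1162, 1060 and 927 CPM (0.32).

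Signalling lists moved little as a whole. Of 11 FGF and ERK feedback genes 3 were at least 2-fold higher (median 0.02): the ERK phosphatase Dusp6 at 244, 186 and 101 CPM (1.23, 0.95 to 1.61), cyclin D1 (Ccnd1) at 27.0, 32.1 and 8.64 CPM and Myc at 38.3, 34.98 and 16.3 CPM. Ccnd1 and Myc were below the minimum level for testing in the low group, so they could be tested only as higher genes. Ccnd1 was highest in the middle group, and Myc in the middle group lay nearer to the high than to the low group. The FGF feedback genes Spry2 and Dusp4 stood at -0.28 and -0.34. Of 11 Hippo pathway genes 1 was at least 2-fold higher, the DNA-binding partner Tead3 at 85.3, 27.8 and 21.1 CPM (1.79), and 8 of the 11 had a ratio below 0 (median -0.39), such as the coactivator Yap1 at 149, 189 and 199 CPM (-0.40) and Amot at 48.8, 65.7 and 91.2 CPM (-0.84). Of 11 GATA, AP-2 and other trophectoderm factors 10 had a ratio above 0 (median 0.57), and 1 of them, the DNA-binding protein Arid3a at 47.9, 19.3 and 15.4 CPM (1.38), passed 2-fold. Over all 6290 genes the median was 0.00 and 3.10% were at least 2-fold higher.

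Tight junction, respiration and cell cycle phase lists held no gene with a 2-fold difference. None of 17 tight junction and polarity genes, 20 oxidative phosphorylation genes, 13 S phase genes or 16 G2 and M phase genes was 2-fold apart, with medians of -0.08, -0.02, 0.07 and -0.06. Over all 6290 genes 3.10% were at least 2-fold higher and 2.37% lower. With lists of this size, none is near that share and does not set these lists apart. The list medians above are for the sum. Ranked by 1 gene, the G2 and M phase median was -0.53 by Eomes, 0.50 by Elf5 and -0.0026 by Cdx2. By the sum, the largest ratio among the tight junction genes was that of occludin (Ocln) at 124, 93.5 and 60.5 CPM (0.97, 0.59 to 1.48). Of 7 endocycle genes cyclin E1 (Ccne1) was at least 2-fold higher, at 48.8, 35.7 and 17.3 CPM (1.27). The surface enzymes Entpd1, which hydrolyses ATP and ADP, and Alpl, the tissue-nonspecific alkaline phosphatase, went opposite ways, at 317, 161 and 152 CPM (1.04) and at 240, 381 and 669 CPM (-1.46). Among 12 measured integrin, adhesion and matrix genes Itga7 and Itgb3 were at least 2-fold higher, Itgb5 (-1.04) and the laminin chain Lama5 (-1.03) at least 2-fold lower.

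**Figure D3:**
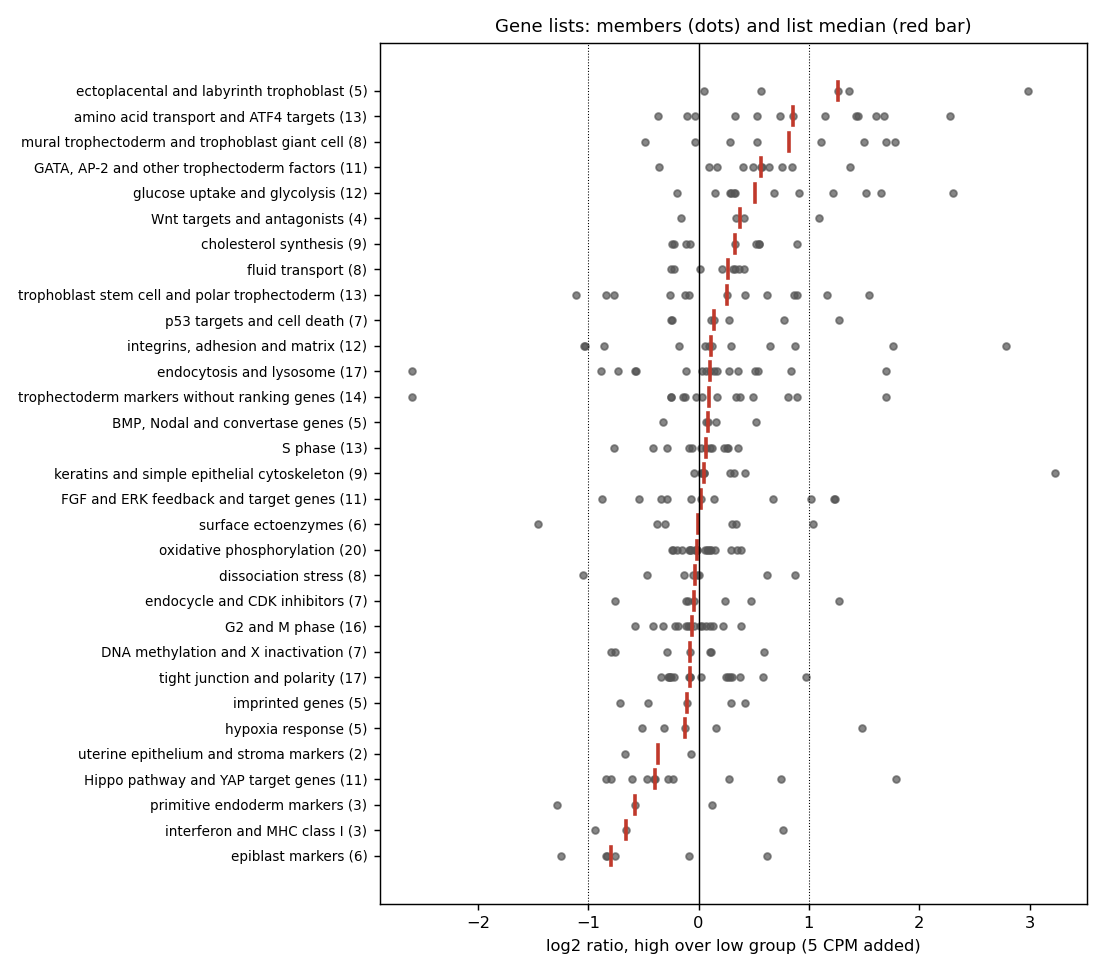
Each dot is a measured member of a gene list and the red bar the list's median; the x axis is the log2 ratio of the high over the low group, with dotted lines at 2-fold, and brackets give the number of members measured. Ectoplacental, amino acid and mural lists have the highest medians, 1.27, 0.85 and 0.82, while tight junction and oxidative phosphorylation members lie between the dotted lines.

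The maternally expressed long noncoding RNA H19 did not follow the ranking. It stood at 1448, 2023 and 1081 CPM (0.42, 0.31 to 0.53) and was seen in 38.3%, 43.7% and 38.1% of barcodes thinned to 2000 UMIs.

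The sum of 3 genes hides opposite relations of their summed levels, which show when the same 374 barcodes are ranked by 1 gene at a time. In groups of the same size by Cdx2 alone, Eomes stood at 411 CPM (376 to 448) in the Cdx2-high group, 483 CPM in the middle group and 509 CPM (468 to 552) in the Cdx2-low group. Elf5 ran the same way, at 139 CPM (119 to 161), 210 CPM and 343 CPM (310 to 379). In groups by Eomes alone, Cdx2 stood at 247, 288 and 347 CPM and Elf5 at 257, 243 and 181 CPM. In groups by Elf5 alone, Cdx2 stood at 213, 332 and 352 CPM and Eomes at 451, 494 and 447 CPM. So Cdx2 was lower where Eomes or Elf5 was high, and Elf5 was higher where Eomes was high. Ranked by Elf5 within 5 strata of depth, Eomes stood at 469 CPM (431 to 509) in the Elf5-high group. It stood at 391 CPM (356 to 428) in the Elf5-low group. The part of depth in this change was not tested. The low group by Elf5 held 118 of 124 barcodes with 0 Elf5 UMIs and was shallower, with a median of 6302 UMIs against 9722 in the high group.

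**Figure D4:**
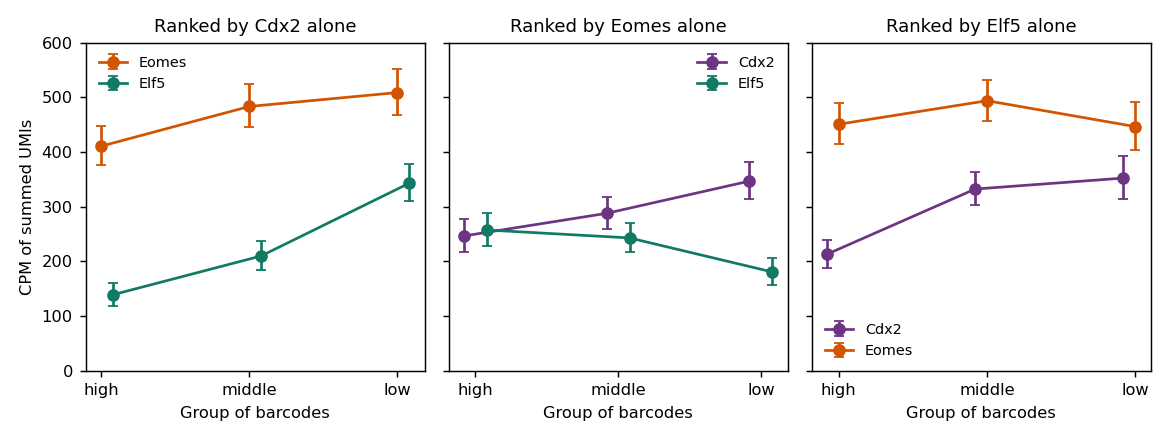
The level (CPM of summed UMIs, y axis) of the ranking genes that were not used for the order is plotted over the high, middle and low groups (x axis) of the 374 barcodes, ranked by Cdx2, Eomes or Elf5 alone; bars are 95% counting intervals. Elf5 climbs from 139 to 343 CPM as Cdx2 falls, and Cdx2 climbs from 247 to 347 CPM as Eomes falls.

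The 30 named genes divided in the same way. They were chosen from the ranking by the sum in these same barcodes, and Eomes gave 47.2% of the UMIs in that sum. A kept direction in rankings that share UMIs with the sum is therefore favoured by construction. Ranked by Eomes alone, all 15 higher genes were at least 2-fold higher, and all 15 lower genes lower, 14 of them by at least 2-fold. Ranked by Elf5 alone, 13 of the 15 higher genes kept their direction and 11 passed 2-fold, and all 15 lower genes kept theirs, 10 by at least 2-fold. The exceptions were Il6 (-1.95) and Slc43a2 (-0.04). Ranked by Cdx2 alone, 1 of the 15 higher genes, Il6, kept its direction (2.50), and 13 of the other 14 were at least 2-fold lower. Of the 15 lower genes 1 kept its direction, Dppa2 (-0.17). The share of genes 2-fold or more above and below was 1.67% and 2.97% of 6220 in groups by Cdx2, 3.72% and 2.59% of 6263 by Eomes, and 3.72% and 3.78% of 6288 by Elf5. With Cdx2 left out of the sum all 30 named genes kept their direction, with Elf5 left out 27 did, and with Eomes left out 22 did. Krt19 (-0.04), Ldha (-0.72) and Psat1 (-0.56) were those that turned without Elf5. Of the 195 genes higher in the high group by the sum, 1 was also at least 2-fold higher by Cdx2 alone and 78 were at least 2-fold lower.

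**Figure D5:**
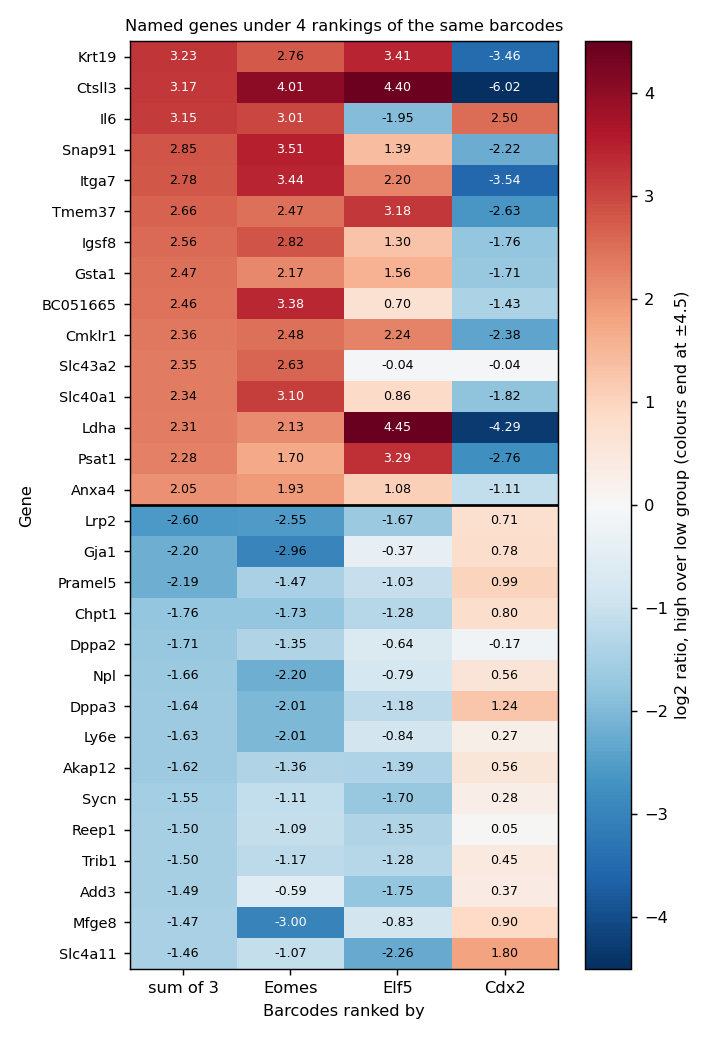
Colours and printed values give the log2 ratio of the top over the bottom group for the 30 named genes (rows) when the same barcodes are ranked by the sum or by 1 gene (columns). Krt19 reads 3.23 by the sum, 2.76 by Eomes, 3.41 by Elf5 and -3.46 by Cdx2, and 14 of the 15 upper genes change sign in the Cdx2 column, with Slc43a2 at -0.04; the values of Itga7 by Cdx2 and by Eomes are set against 0 UMIs.

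Genes low in Cdx2-high barcodes were in part almost absent from them. In the Cdx2-high and Cdx2-low groups, Ctsll3 gave 1 and 420 UMIs and Itga7 0 and 60. Ier5, an immediate early gene, gave 0 and 133, and the integrin subunit Itgb3 0 and 40. Few barcodes carried such totals. In the high, middle and low groups by the sum, Ctsll3 was seen in 14, 2 and 2 barcodes and Itga7 in 23, 6 and 1. A single barcode of the high group by the sum held 101 Ctsll3 UMIs. With the limit of 3 UMIs over the group in place of 0, Itga7 was at least 21.9-fold lower in the Cdx2-high group, and by Eomes alone, with 54 and 0 UMIs, at least 19.04-fold higher in the Eomes-high group. Ldha stood at 6.47 against 220 CPM (log2 ratio -4.29, -6.31 to -4.09), Phlda2 at 2.43 against 139 CPM (-4.28) and Krt19 at 11.3 against 175 CPM (-3.46). The actin-binding caldesmon gene Cald1 stood at 9.71 against 127 CPM (-3.16) and the homeobox gene Irx3 at 27.5 against 234 CPM (-2.88). Of the 12 glycolysis genes 7 were at least 2-fold lower (median -1.21), and of 14 amino acid genes 6 (median -0.86), with 0 higher in both. Of all 6220 genes tested in the groups by Cdx2, 2.97% were at least 2-fold lower and 1.67% higher. Genes higher in the Cdx2-high group had smaller ratios: Slc4a11, a solute carrier, stood at 89.8 against 22.2 CPM (1.80), the bHLH factor Tcf15 at 54.2 against 13.3 CPM (1.69), and Wnt3a at 45.3 against 13.3 CPM (1.46). Within 5 strata of depth, where the Cdx2-high and Cdx2-low groups had medians of 8530 and 8768 UMIs, 13 of the 15 higher genes were again at least 2-fold lower in the Cdx2-high group.

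The higher genes were gathered in a minority of barcodes. The number of the 15 higher genes with a UMI had a median of 3 in barcodes of the high group, 2 in the middle group and 1 in the low group, and reached 14, 13 and 10. Barcodes with at least 8 of the 15 numbered 29, 7 and 2, 38 in all. These 38 were chosen by those genes, and what follows describes them. They were deeper than the other 336, with medians of 13525 and 8463 UMIs. Cdx2 stood at 148 CPM (116 to 186) in them and 317 CPM (298 to 338) in the rest, Eomes at 813 and 412 CPM, and Elf5 at 386 and 202 CPM. The gate genes Krt18 and Dppa1 stood at 2029 and 2182 CPM and at 1200 and 1182 CPM. After thinning to 2000 UMIs, barcodes with at least 4 of the 15 genes made up 33 of 120 (27.5%, exact binomial interval 19.7 to 36.4), 9 of 126 (7.14%) and 3 of 118 (2.54%) of the high, middle and low groups. The 15 genes were themselves chosen for a higher level in the high than in the low group. The order of the groups in these counts, thinned or not, is therefore favoured by construction. With the 38 left out and the rest ranked again, 94 genes were at least 2-fold higher and 96 lower, of which 68 and 68 were among the 195 and 149. Ctsll3 (-1.05) and Slc40a1 (-0.18) then changed direction, and the other 28 named genes did not.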

How the data were processed

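Single cells of E4.5 mouse embryos and of embryoids were measured in 2 libraries. Per the submitters' processing notes the authors' tools included STAR 2.7.1a, featureCounts 1.6.4, UMI-tools 1.0.1 and bcl2fastq 2.19.1.403, on build mm10. How cells were called, which annotation was counted and with which settings is not given in the sources used here. Counts of UMIs per gene and barcode, not normalized, are what the authors deposited, with 11047555 UMIs over 1288 barcodes of blastocysts. Intronic reads, strand and reads of close copies could change these counts.

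From the counts, filters, gate and groups were applied as the report states, in Python 3.11.15 with numpy 2.4.6, pandas 2.3.3 and scipy 1.17.1. UMIs were summed per group, the 3 ranking genes removed, and CPM and log2 ratios with 5 CPM added computed. The level intervals are exact Poisson, those of ratios exact conditional binomial and those of shares Clopper-Pearson, all at 95%. Against 0 UMIs the log2 ratio rests on the added CPM, and a bound from the 3 UMIs over the group that a count of 0 allows is given beside it. Named genes are the 15 with the largest ratio each way among those with at least 30 CPM, a UMI in at least 10% of barcodes in the higher group and an interval leaving out 1, without mitochondrial, ribosomal, Gm and Rik genes. No doublets were removed; Scrublet (scanpy 1.11.5) marked 17 of 1097 barcodes, 1 of them trophectoderm, and leaving these out was an alternative. Positions come from GENCODE vM21, which held 18191 of 19307 gene symbols, and windows before gene starts from RefSeq. The ratio code was tested on simulated data. Members, gene lists and comparisons were chosen with earlier results of these data known.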

Additional observations from a re-analysis of the deposited data

Results flagged for a closer look

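The same trophectoderm gate was applied to the embryoid library, which the comparison of groups does not use. It passed 120 of 5328 embryoid barcodes (2.25%, exact binomial interval 1.87 to 2.69). The gate sum in these barcodes came from Krt18 (920 UMIs) and Tspan8 (95 UMIs), with 0 UMIs of Dppa1 and 0 of Gata3. A UMI of Cdx2, Eomes or Elf5 was seen in 17 of the 120, and the 3 genes together stood at 34.2 CPM, against 988 CPM in the 374 blastocyst barcodes.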

How the results depend on the processing

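The counts of 195 higher and 149 lower genes depend on how the groups and the minimum are set, and all barcodes come from 1 library, so no replicate could be left out. No paired analysis was possible because each library is 1 sample. The alternatives with ranking within depth strata (162 and 100), a higher UMI minimum, a stricter gate, Scrublet calls left out, another scaling and mean barcode CPM stayed within 1.5 times of both counts. Fewer barcodes or shallower profiles gave 2027 and 1785 (the 6 barcodes with 0 UMIs as the low group), 388 and 411 (2000 UMIs), 418 and 457 (at most 10% mitochondrial) and 303 and 329 (top and bottom 20%). Splitting at the median gave 76 and 23. With 1 CPM added 238 genes were lower and with 10 CPM 85; no minimum gave 312 and 262, and a 50 CPM minimum 122 and 68. Chosen after seeing the data, strata of mitochondrial share gave 94 lower, other-lineage barcodes left out 248 lower, and barcodes with 8 or more of the higher genes left out 94 and 96. Leaving out other-lineage barcodes gave smaller groups, of 74 barcodes each. Cdx2 alone gave 104 higher, Elf5 alone 238 lower, the sum without Cdx2 255 lower, without Eomes 57 and 44, and without Elf5 128 and 65.

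Directions turned mostly with the ranking gene. By Cdx2 alone, and in brackets within 5 depth strata, Krt19 was at -3.46 (-3.48), Ctsll3 -6.02 (-5.96), Snap91 -2.22 (-2.26), Itga7 -3.54 (-3.53, both against 0 UMIs), Tmem37 -2.63 (-2.61), Igsf8 -1.76 (-2.09), Gsta1 -1.71 (-1.82), BC051665 -1.43 (-1.36), Cmklr1 -2.38 (-2.43), Slc43a2 -0.036 (-0.37), Slc40a1 -1.82 (-1.95), Ldha -4.29 (-4.20), Psat1 -2.76 (-2.65) and Anxa4 -1.11 (-1.08). Of the lower genes Lrp2 was at 0.71 (0.69), Gja1 0.78 (0.88), Pramel5 0.99 (0.76), Chpt1 0.80 (0.82), Npl 0.56 (0.45), Dppa3 1.24 (1.12), Ly6e 0.27 (0.23), Akap12 0.56 (0.70), Sycn 0.28 (0.22), Reep1 0.053 (0.012), Trib1 0.45 (0.58), Add3 0.37 (0.50), Mfge8 0.90 (0.96) and Slc4a11 1.80 (1.90). List medians by Cdx2 alone were -0.0038 (mural), -0.73 (ectoplacental), -1.21 (glycolysis), -0.86 (amino acids), 0.030 (epiblast) and 0.74 (primitive endoderm).

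By Elf5 alone the mural list was at -0.25, GATA and AP-2 factors -0.41, Il6 -1.95 (-1.12 within strata) and Slc43a2 -0.040 (-0.28). Without Eomes the mural list was at -0.20, ectoplacental -0.00043, GATA and AP-2 factors -0.20, Snap91 -0.48, Igsf8 -0.41, BC051665 -0.73, Slc43a2 -0.56, Slc40a1 -1.51, Anxa4 -0.042, Gja1 0.0072 and Mfge8 0.022. Without Elf5 glycolysis was at -0.12, primitive endoderm markers 0.30, Krt19 -0.043, Ldha -0.72 and Psat1 -0.56. Other reversals were Anxa4 -0.72, Add3 1.63 and Slc4a11 2.55 (0-UMI low group), Il6 -1.24, Pramel5 0.85 and the interferon list 0.0023 (2000 UMIs), Reep1 0.55 (at most 10% mitochondrial), epiblast markers 0.60 (other-lineage barcodes left out), and Ctsll3 -1.05 and Slc40a1 -0.18 (barcodes with 8 or more higher genes left out). The cause was not tested. The ranking rests on a median of 14 and 3 ranking UMIs in the high and low groups. The part of counting error in these reversals was not tested either.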

Other observations

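Groups of barcodes ranked by Elf5 alone gave larger list medians than the sum for the S phase, FGF and ERK, and glycolysis lists, whose medians by the sum were 0.07, 0.02 and 0.51. Of 13 S phase genes 3 were at least 2-fold higher in the Elf5-high group (median 0.84), of 11 FGF and ERK genes 4 (median 0.70) and of 12 glycolysis genes 7 (median 1.25), against 3.72% of all genes. The immediate early gene Ier5 gave 145 and 0 UMIs in the Elf5-high and Elf5-low groups, Ldha stood at 199.5 against 4.38 CPM (log2 ratio 4.45, 4.14 to 7.40), and Psat1 at 581 against 54.8 CPM (3.29, 2.99 to 3.85). Alpl, the tissue-nonspecific alkaline phosphatase, stood at 206 against 703 CPM (-1.74, -1.98 to -1.56) and the translation inhibitor Pdcd4 at 80.9 against 323 CPM (-1.93). The Elf5-low group was shallower, with a median of 6302 against 9722 UMIs, and the part of depth in the list values was not tested.

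H19 stood at different ratios in the 3 rankings, with log2 ratios of 0.26 by Cdx2, -0.57 by Eomes and 1.24 by Elf5. Dab2, an endocytic adaptor, stood at 1.11, -0.33 and -1.26, and Il6 at 2.50, 3.01 and -1.95. Barcodes with under 1% mitochondrial UMIs numbered 10, 1 and 2 in the high, middle and low groups by the sum. With them left out all 30 named genes kept their direction.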
